A study of Mus musculus with 12 samples.

Results

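The comparison described here is that of hearts lacking Adam17 in cardiomyocytes with floxed hearts, both from mice given doxorubicin. Its members were chosen by label, as the 3 A17α-MHCKO + DOX mice and the 3 A17fl/fl + DOX mice, and these are 6 of the 12 mice sequenced. The other 6 mice, 3 A17α-MHCKO + NS and 3 A17fl/fl + NS, received normal saline (NS) and served as a second, separate view of the genotype. All 12 mice carried floxed Adam17 alleles on a C57BL/6J background, and A17fl/fl mice were littermates of the knockouts. In A17α-MHCKO mice, Cre recombinase under the α-myosin heavy chain (α-MHC) promoter removed exon 2 of Adam17 in cardiomyocytes and left it in the other cells of the heart. Doxorubicin (DOX) was injected intraperitoneally 4 times at 5 mg/kg, to a cumulative dose of 20 mg/kg, and hearts were taken 4 weeks after the last injection. The study's text gives these mice as males of 8 weeks at the start of the experiment. Each mouse gave 1 library of heart RNA, labelled as heart and described in the study as left ventricle, with fragment counts for 53465 genes.

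ADAM17 is a membrane-bound metalloprotease that sheds the outer part of many cell surface proteins, among them TNF-α, its receptors and ligands of the EGF receptor. TNF-α binding to its receptor TNFR1 recruits adaptor proteins of the TRAF family and activates the kinase TAK1, which lies upstream of the MAP kinases. Doxorubicin is an anthracycline that poisons topoisomerase II and damages cardiac mitochondria, and its use in cancer is limited by cardiomyopathy.

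The targeted exon is shown because the count of Adam17 does not measure it directly. Exon 2 of the transcript Adam17-201 lies on the minus strand at chr12:21361659-21361791 (GRCm38, GENCODE M21), within a gene of 19 exons. It has 133 bases, all coding, which is not a multiple of 3, and it makes up 2.99% of the 4443 bases of the transcript. A transcript that lacks it can still give fragments from the remaining exons. The exon is in capitals, between 15 bases of exon 1 and 15 bases of exon 3.
Adam17 exon 2: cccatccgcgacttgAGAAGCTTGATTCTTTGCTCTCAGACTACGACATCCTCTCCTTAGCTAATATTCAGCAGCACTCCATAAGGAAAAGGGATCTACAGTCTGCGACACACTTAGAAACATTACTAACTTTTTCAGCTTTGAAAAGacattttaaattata

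The promoter windows of Pold3 and P4ha3 are shown because these genes had the smallest p-values of all genes between the genotypes and lie close together on chromosome 7. Both windows run from 250 bases before to 30 bases after the RefSeq start. That of Pold3 is at chr7:100121473-100121752 on the minus strand and that of P4ha3 at chr7:100285270-100285549 on the plus strand (GRCm38.p6). Capitals mark GC boxes (GGGCGG or its complement CCGCCC).
Pold3 promoter: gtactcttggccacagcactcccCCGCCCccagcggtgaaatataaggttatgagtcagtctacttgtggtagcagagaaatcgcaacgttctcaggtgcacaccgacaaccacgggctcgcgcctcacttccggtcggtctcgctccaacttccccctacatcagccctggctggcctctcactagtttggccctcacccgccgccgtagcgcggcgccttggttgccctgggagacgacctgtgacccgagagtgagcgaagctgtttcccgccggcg
P4ha3 promoter: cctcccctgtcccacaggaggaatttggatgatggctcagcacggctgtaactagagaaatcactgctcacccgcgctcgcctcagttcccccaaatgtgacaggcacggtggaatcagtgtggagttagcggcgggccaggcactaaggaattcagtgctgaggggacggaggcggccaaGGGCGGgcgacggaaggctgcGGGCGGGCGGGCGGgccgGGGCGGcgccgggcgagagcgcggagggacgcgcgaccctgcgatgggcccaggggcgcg

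The Pold3 window held 1 GC box and the P4ha3 window held 5, counting overlapping matches on both strands, and 34.7% of 32851 promoter windows of the same length held at least 1. Neither window held TATAAA, found in 13.1% of all windows, or CCAAT, found in 36.1%. Their GC contents were 62.1% and 68.9%, against a median of 52.5% over all windows.

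The 6 libraries had similar depths, from 15950717 to 16640289 fragments, and 1 of them stood apart. A17α-MHCKO + DOX replicate 1 had a score of 53.9 on the first principal component of the 6 libraries, which held 31.3% of the variance, while the other 5 had scores between -23.4 and -1.92. Its counts differed from those of the other knockout mice given doxorubicin by a chi-square of 33.1 per degree of freedom in both pairs, against 13.2 between those 2 mice and 11.1 to 14.6 among the A17fl/fl + DOX mice. In this library short genes were high and long genes low. Over 495 genes with an implied length under 0.5 kb its median log2 CPM lay 0.49 above the mean of the 6 libraries, and over 4937 genes longer than 8 kb it lay 0.13 below. The largest deviation of the other 5 libraries in any length class was -0.17. Results on short or long genes are therefore given below with and without this library, and the part of fragment or RNA quality in them was not tested. Among the saline mice, A17fl/fl + NS replicate 1 differed from its group by a chi-square of 151 and 169.9 per degree of freedom, against 51.9 between the other 2, and it held 3068 CPM of neutrophil markers against 22.2 to 48.9 CPM in the other 5 saline libraries, and the part of these cells in the saline values was not tested.

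**Figure D1:**
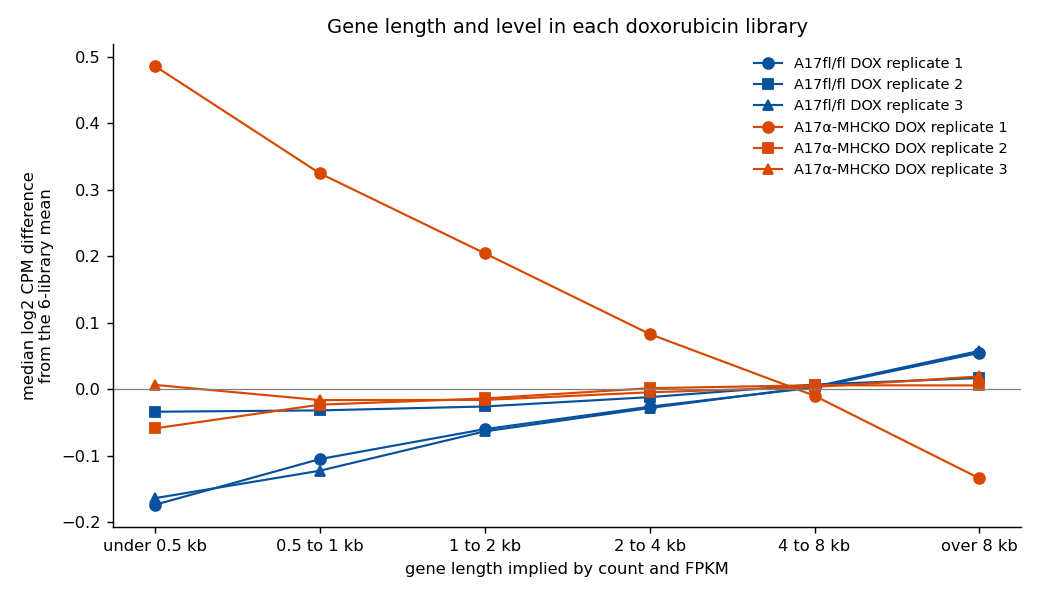
Median difference in log2 CPM from the mean of the 6 doxorubicin libraries (y axis), for tested genes in 6 classes of gene length (x axis, kb). Each line is 1 mouse, blue for A17fl/fl + DOX and orange for A17α-MHCKO + DOX. Replicate 1 of A17α-MHCKO + DOX runs from 0.49 in the shortest class to -0.13 in the longest, while the other 5 lines stay between -0.17 and 0.06.

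Counts of 16101 genes were tested with edgeR's quasi-likelihood test. At the limits of the study (absolute log2 fold change over 1, unadjusted p under 0.05 and an average above 1 FPKM in either group), 33 genes were called, 0.205% of those tested. Of these, 24 were higher in A17α-MHCKO + DOX hearts (0.149%) and 9 were lower (0.0559%). After Benjamini-Hochberg adjustment over all tested genes, 1 gene remained under 0.05 (0.00621%), Pold3. At an unadjusted p under 0.05 there were 435 genes (2.7%), 244 of them higher (1.52%) and 191 lower (1.19%). The 2 groups did not overlap in 2268 genes (14.1%), higher in the knockout in 6.96% and lower in 7.13%. The median log2 fold change over all tested genes was 0.01. The model takes the spread between mice from all 12 libraries, the saline ones included. Without A17fl/fl + NS replicate 1, 550 of 16406 tested genes were higher and 409 lower at an unadjusted p under 0.05.

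**Figure D2:**
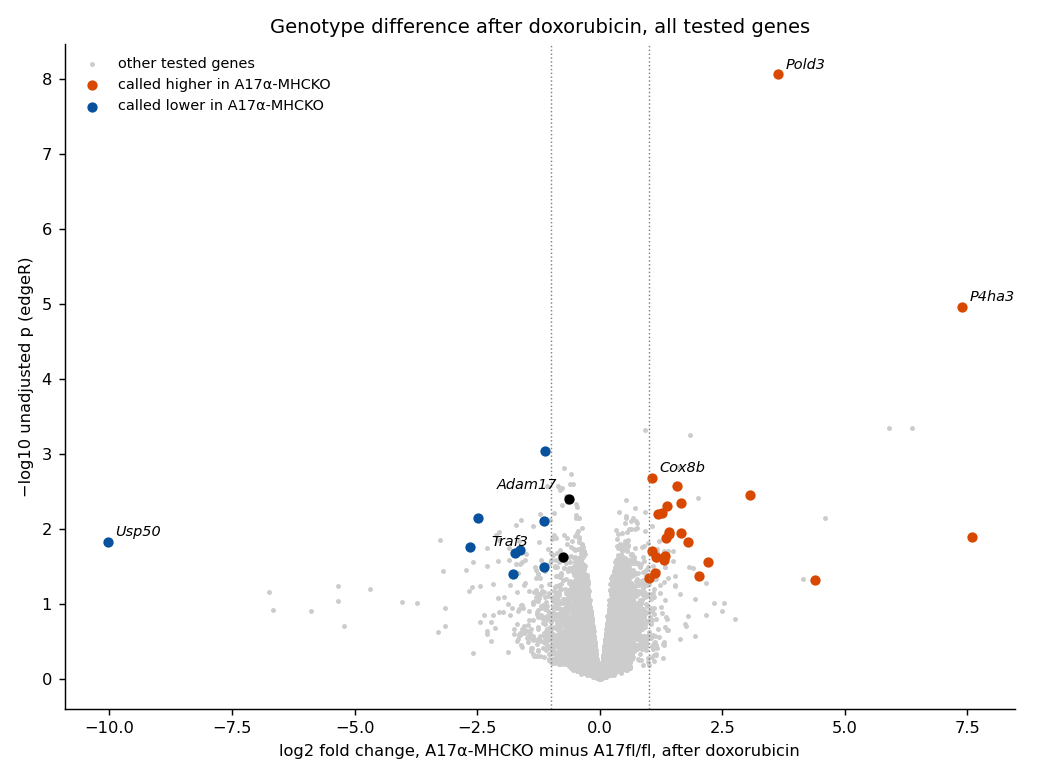
Log2 fold change of knockout over floxed hearts after doxorubicin (x axis) and −log10 of the unadjusted edgeR p (y axis) for 16101 genes. Orange points are the 24 genes called higher in the knockout, blue points the 9 called lower, black points Adam17 and Traf3, and dotted lines mark a log2 fold change of 1 in either direction. Pold3 and P4ha3 stand above all other genes.

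The calls leaned on single libraries. Of the 33 called genes, 10 were called in all 6 fits that left out 1 doxorubicin library, and 8 were called in fewer than 3 of them. Without A17α-MHCKO + DOX replicate 1, 28 genes were called and 11 of them were among the 33. Without A17α-MHCKO + DOX replicate 2, 64 genes were called, 29 of them shared. By annotation, 19 of the 33 were protein-coding and 6 were pseudogenes, and 13 were gene models without an assigned name.

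Adam17 itself was lower in every knockout. Its level was 48.1, 53.2 and 48.4 CPM in the 3 floxed hearts after doxorubicin and 27.9, 36.8 and 32.2 CPM in the A17α-MHCKO + DOX mice. The groups did not overlap, and the mean fell by 35.3% (log2 fold change -0.63 ± 0.18 SE; edgeR unadjusted p = 0.00407, adjusted p = 0.9998). In mice given saline, levels were 70.9, 48.7 and 43.6 CPM in A17fl/fl and 35.3, 34.9 and 34.2 CPM in A17α-MHCKO, a log2 fold change of -0.64, and the interaction of genotype with treatment was small (edgeR unadjusted p = 0.951). Over all alternatives the log2 fold change after doxorubicin lay between -0.73 and -0.53, with an unadjusted p under 0.05 in 19 of 19 fits and an adjusted p of at least 0.252. Bulk heart RNA also holds Adam17 transcripts of cells in which α-MHC-Cre is not active, and fewer transcripts per cardiomyocyte cannot be told apart here from a change in the share of cardiomyocytes.

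Traf3, an adaptor of TNF receptors and of innate immune signaling, was the other gene of the axis with an unadjusted p under 0.05. Its level was 25.1, 20.7 and 22.3 CPM in A17fl/fl + DOX hearts and 13.2, 9.68 and 17.9 CPM in A17α-MHCKO + DOX hearts, without overlap. The log2 fold change was -0.74 ± 0.28 (SE; edgeR unadjusted p = 0.0238, adjusted p = 0.9998). In saline mice the sign was the opposite, with 12.1, 10.6 and 9.65 CPM in A17fl/fl and 19.1, 13.8 and 8.31 CPM in A17α-MHCKO (log2 fold change 0.35, edgeR unadjusted p = 0.246), and the groups overlapped. The interaction had an unadjusted p of 0.0198 and did not pass adjustment over all genes. Traf3 lay below the fold limit of the study and was not among the called genes. Its unadjusted p was no longer under 0.05 without A17fl/fl + DOX replicate 1 (edgeR unadjusted p = 0.0689). The same held without A17α-MHCKO + DOX replicate 1 (0.0601) or replicate 2 (0.097), and with an offset for gene length (0.0658). The log2 fold change of Traf3 stayed between -0.99 and -0.55. An exact two-sided permutation test of Adam17 or Traf3 gave p = 0.1, the smallest value that 3 mice against 3 allow.

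The other genes of the axis were close between the genotypes. Tnf, the ligand, was near the limit of counting, at 0.566, 0.246 and 0.186 CPM in A17fl/fl + DOX and 0.0629, 0.65 and 0.425 CPM in A17α-MHCKO + DOX (exact two-sided permutation p = 0.9). Tnfrsf1a, which encodes TNFR1, had 80.1, 81.1 and 70.1 CPM against 71.1, 77.2 and 75.2 CPM, a log2 fold change of -0.05 ± 0.32 (SE). Map3k7, which encodes TAK1, had 62.8, 41.5 and 56.8 CPM against 38.1, 62.1 and 57.7 CPM, a log2 fold change of -0.03 ± 0.23. The groups overlapped for all 3 genes. Among the MAP kinases, the log2 fold change was 0.01 for Mapk8 and -0.08 for Mapk9 (the JNK kinases), -0.27 for Mapk14 (p38α) and 0.07 for Mapk3 (ERK1). Cebpb, a transcription factor of the acute-phase response, had 74.8, 59.8 and 59.9 CPM against 100.1, 73.5 and 71.9 CPM (0.34 ± 0.36), again with overlap. Elk1, a transcription factor phosphorylated by MAP kinases, and Map3k1, a kinase upstream of JNK, did not overlap between the groups (log2 fold change -0.31, edgeR unadjusted p = 0.0892, and -0.27, unadjusted p = 0.104). In the whole list of TNF, TRAF3, TAK1 and MAPK genes, 1 of 50 tested genes was lower with an unadjusted p under 0.05. That is 2%, close to the 1.19% of all tested genes, and 0 were higher. Of the 50, 25 were above 0, and the median was -0.00 against 0.01 over all genes.

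Of 42 tested genes for ADAM17, its regulators and its shed substrates, only Adam17 had an unadjusted p under 0.05. The median of that list was -0.10, and 14 of 42 were above 0. Cx3cl1, a chemokine shed by ADAM17, had 15.8, 16.6 and 15.1 CPM in A17fl/fl + DOX and 11.4, 12 and 12.3 CPM in A17α-MHCKO + DOX, without overlap (-0.41, edgeR unadjusted p = 0.0733). Furin, a protease that cleaves the ADAM17 prodomain, had 130.3, 132 and 131 CPM against 70.6, 122 and 111 CPM, and its log2 fold change was -0.37 with all libraries and -0.17 without A17α-MHCKO + DOX replicate 1. Without that library the list median was -0.00, with 22 of 44 genes above 0.

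**Figure D3:**
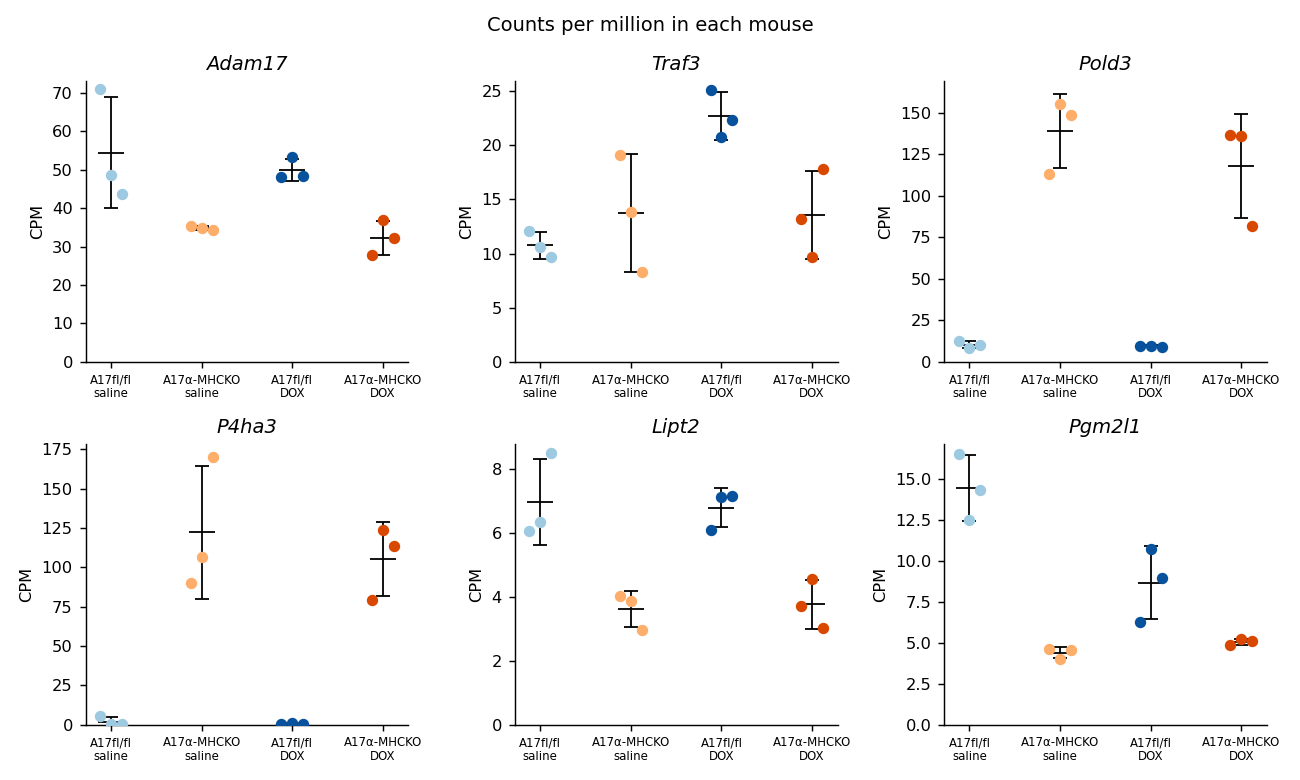
CPM, counts scaled to library size with TMM factors (y axis), of 6 genes in each of the 12 mice, by genotype and treatment. Points are mice, the long bar is the group mean and the error bars are 1 SD (n = 3). Adam17 is lower in the knockout under both treatments, Traf3 does not overlap between the genotypes after doxorubicin and overlaps after saline, and Pold3 and P4ha3 are far higher in the knockout under both.

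The genes with the smallest p-values, Pold3 and P4ha3, lay in a run of neighbouring genes on chromosome 7. Pold3 encodes an accessory subunit of DNA polymerase delta. It had 9.87, 9.66 and 8.83 CPM in A17fl/fl + DOX hearts and 137, 136 and 81.6 CPM in A17α-MHCKO + DOX hearts. The groups did not overlap, and the mean was 12.5-fold higher (log2 fold change 3.64 ± 0.24 SE; edgeR adjusted p = 0.00014). In every alternative its adjusted p was under 0.05, with log2 fold changes from 3.52 to 3.85.

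P4ha3 encodes a catalytic subunit of collagen prolyl 4-hydroxylase, which modifies collagen chains in the endoplasmic reticulum. It was nearly silent in A17fl/fl + DOX hearts, at 0.629, 0.8 and 0.435 CPM, and reached 79.1, 124 and 114 CPM in A17α-MHCKO + DOX hearts, a 169.9-fold difference of the means without overlap. Its log2 fold change was 7.39 ± 0.99 (SE, edgeR unadjusted p = 1.09e-05, adjusted p = 0.0876). The adjusted p depended on the setting. It fell under 0.05 in some alternatives, among them the 2 doxorubicin groups fitted alone (1.18e-05) and A17fl/fl + NS replicate 1 left out (8.89e-06). It did not in any fit that left out 1 doxorubicin library or in the fit with the length offset, and its largest value was 0.929. The saline mice, which are other animals, gave the same picture. Pold3 had 12.8, 8.26 and 10.02 CPM in A17fl/fl + NS and 113, 155 and 149 CPM in A17α-MHCKO + NS (log2 fold change 3.75), and P4ha3 had 5.25, 0.359 and 0.0626 CPM against 90.1, 106 and 170.1 CPM (5.99, edgeR unadjusted p = 2.86e-05).

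The 2 tested genes between Pold3 and P4ha3 differed in the other direction. Lipt2, a ligase of mitochondrial lipoate metabolism, had 6.1, 7.14 and 7.15 CPM in A17fl/fl + DOX and 3.71, 4.55 and 3.04 CPM in A17α-MHCKO + DOX, without overlap (log2 fold change -0.85 ± 0.22 SE, edgeR unadjusted p = 0.00267). Pgm2l1, a glucose-1,6-bisphosphate synthase, had 6.29, 10.7 and 8.95 CPM against 4.85, 5.2 and 5.1 CPM, also without overlap (-0.78 ± 0.20, unadjusted p = 0.00284). In saline mice their log2 fold changes were -0.94 and -1.72, and the saline value of Pgm2l1 had an adjusted p of 0.0203 in edgeR, 1 of 3 genes under 0.05 after saline (0.0186%). Ppme1, the next tested gene after P4ha3, was at -0.28 after doxorubicin (unadjusted p = 0.0829) and -0.51 after saline (unadjusted p = 0.00467). Of the 6 tested genes before Pold3, none had an unadjusted p under 0.05 under either treatment. Gene order was taken from GENCODE M21 (GRCm38).

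**Figure D4:**
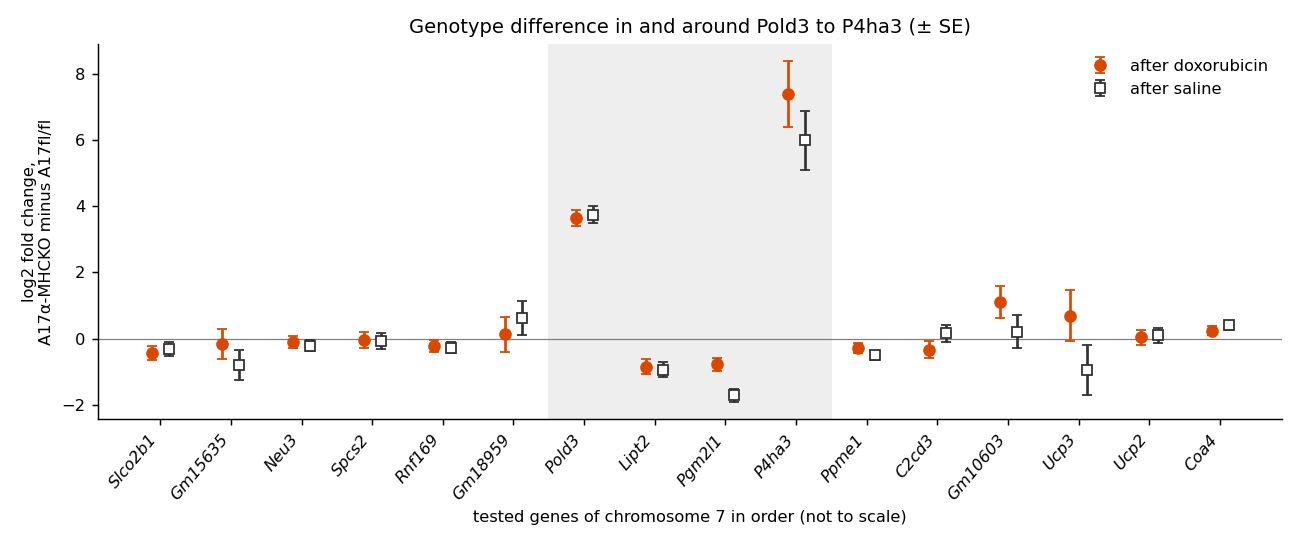
Log2 fold change between the genotypes (y axis, ± SE) for 16 consecutive tested genes of chromosome 7 in their order (x axis, not to scale). Filled circles are the doxorubicin mice and open squares the saline mice, and grey shading marks the 4 genes from Pold3 to P4ha3. Both treatments show Pold3 and P4ha3 high and Lipt2 and Pgm2l1 low in the knockout.

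Chromosome 7 held 10 of the 33 called genes, 0.797% of its 1254 tested genes against 0.205% of all tested genes, and the region was looked at after these values were seen. Within 5 Mb of the interval from Pold3 to P4ha3, 11 of 109 tested genes had an unadjusted p under 0.05 after doxorubicin (10.1%), against 2.53% in the rest of the chromosome and 2.65% on other chromosomes. The 11 include Pold3, Lipt2, Pgm2l1 and P4ha3, around which the window was drawn. Within the same window 6 genes passed in both treatments in the same direction, again with those genes among them. The 6 also included Trim34b, of a cluster of TRIM genes of antiviral defence. Trim34b had 0.314, 0.554 and 0.497 CPM in A17fl/fl + DOX and 1.2, 1.23 and 2.49 CPM in A17α-MHCKO + DOX (1.83, saline 2.37). Of its neighbours in the cluster, Trim12a and Trim5 were lower in A17α-MHCKO + DOX hearts without overlap. Trim12a had 14.5, 13.8 and 14.0 CPM against 4.85, 5.26 and 9.35 CPM (-1.12 ± 0.25 SE, unadjusted p = 0.000935), and Trim5 had 4.15, 4.19 and 3.67 CPM against 1.51, 1.75 and 2.43 CPM (-1.07, unadjusted p = 0.00272). In saline mice Trim12a was at -0.43 and Trim5 at -0.23, and the groups did not pass the test. These TRIM genes are close paralogs, and the way their shared fragments were assigned is uncertain.

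Igsf23, which encodes an immunoglobulin superfamily protein, was another call on chromosome 7 that was seen in both treatments. It had 4.9, 3.08 and 3.29 CPM in A17fl/fl + DOX and 1.07, 1.75 and 2.31 CPM in A17α-MHCKO + DOX (-1.13), and the saline value was -1.23 (unadjusted p = 0.00334). Without A17α-MHCKO + DOX replicate 1 its log2 fold change was -0.88.

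Over all called genes, the direction after saline was the same in 21 of 33 (63.6%), against 50.2% of all tested genes. In 5 of them, Pold3, P4ha3, Mpc1, Igsf23 and Usp50, the saline difference also had an unadjusted p under 0.05, which is 15.2% of the called genes against 5.38% of all tested genes, and 0 passed in the opposite direction. After adjustment edgeR left 0 genes with an interaction of genotype and treatment, of 965 at an unadjusted p under 0.05 (5.99% of all tested genes).

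Mitochondrial genes were among the calls. Cox8b, a cytochrome c oxidase subunit of heart and skeletal muscle, had 238, 172 and 205 CPM in A17fl/fl + DOX and 559, 391 and 344 CPM in A17α-MHCKO + DOX, without overlap (1.07 ± 0.27 SE, unadjusted p = 0.0021). With an implied length of 0.36 kb it is among the short genes, and its log2 fold change was 0.84 without A17α-MHCKO + DOX replicate 1 and 0.78 with the length offset, below the fold limit. In saline mice it was at 0.21. Mpc1, a subunit of the mitochondrial pyruvate carrier, had 37.3, 41.8 and 27.0 CPM against 109, 130 and 37.8 CPM. In Mpc1 the lowest knockout mouse lay within the A17fl/fl + DOX range (1.38 ± 0.40, unadjusted p = 0.00498, saline 0.89).

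Some calls rested on bimodal levels, high in some mice of a group and low in others. Usp50, a gene of the deubiquitinase family, had 9.37, 0.123 and 13.7 CPM in A17fl/fl + DOX and 0, 0 and 0 CPM in A17α-MHCKO + DOX. In saline it had 11.4 CPM in 1 A17fl/fl mouse and 0 in the others, and at most 0.123 CPM in A17α-MHCKO. Nek7, a mitotic kinase that also serves the NLRP3 inflammasome, had 29.4, 30.3 and 33.7 CPM against 32.7, 105 and 113 CPM (1.42, unadjusted p = 0.0112). Rpl30, a ribosomal protein gene with many processed copies in the genome, had 3.08, 49.98 and 4.85 CPM against 90.5, 50.8 and 127 CPM (2.21, unadjusted p = 0.0279). Both A17fl/fl + DOX replicate 2 and A17α-MHCKO + DOX replicate 2 lay at the same level for Rpl30. Aak1, a kinase of clathrin-mediated endocytosis, had 76.3, 28 and 75.3 CPM against 18.4, 27.7 and 12 CPM (-1.63, unadjusted p = 0.0194), and in saline it was at 1.02.

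Other calls leaned on 1 mouse. Pcdhgb1, a γ-protocadherin that shares exons with its cluster, had 3.27, 2.22 and 2.11 CPM against 4.78, 4.74 and 54.0 CPM, and its log2 fold change of 3.06 became 0.91 without A17α-MHCKO + DOX replicate 3. Prr33 had 7.17, 0.985 and 0.932 CPM against 0.692, 0.91 and 1.03 CPM, and its -1.78 became -0.12 without A17fl/fl + DOX replicate 1. Rprd1b, a regulator of RNA polymerase II, had 38.3, 13.2 and 10.9 CPM against 9.13, 7.47 and 11.7 CPM, with -1.14 and, without the same mouse, -0.36. Nphs1 and Scgb1c1 were highest in A17α-MHCKO + DOX replicate 1, at 44.8 and 50.1 CPM. Nphs1, which encodes nephrin, had a log2 fold change of 1.003, and 0.57 without that mouse. Scgb1c1, a secretoglobin, had 1.65, and 0.95 without it.

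The pseudogene Scp2-ps2 had 8.8, 14.8 and 11.2 CPM against 56.8, 45.5 and 18.9 CPM, without overlap (1.80), and was at -0.59 after saline.

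Of the calls without overlap off chromosome 7, that on Snhg18 was kept in every setting. Snhg18, a long noncoding host gene of a small nucleolar RNA, had 2.52, 3.14 and 2.98 CPM in A17fl/fl + DOX and 8.62, 4.81 and 12.3 CPM in A17α-MHCKO + DOX, without overlap (1.57 ± 0.41 SE, unadjusted p = 0.00272). In saline mice Snhg18 was at 0.21 (interaction unadjusted p = 0.0341). Afmid, kynurenine formamidase of tryptophan breakdown, had 3.4, 2.65 and 2.24 CPM against 7.18, 6.11 and 5.16 CPM (1.15, unadjusted p = 0.024, saline 0.56), and was called in 3 of 6 fits that left out a library. Scamp4, a vesicle membrane protein gene, had 4.15, 4.74 and 3.23 CPM against 18.3, 5.07 and 14.9 CPM (1.66, unadjusted p = 0.0116, saline -0.28), and was called in 5 of those 6 fits.

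Over all tested genes, 27 had an unadjusted p under 0.05 in the same direction in both the doxorubicin and the saline mice, 17 higher and 10 lower in the knockout, and 19 passed in opposite directions. Of the 27, 8 lay on chromosome 7, which has 1254 of the 16101 tested genes. Another 4, Adam17 itself among them, lay on chromosome 12 (576 tested genes) and 4 on chromosome 4 (994). Off chromosome 7 they were mostly small differences. Rpe, an epimerase of the pentose phosphate pathway, had 10.4, 12.1 and 11.4 CPM in A17fl/fl + DOX and 7.11, 6.37 and 7.47 CPM in A17α-MHCKO + DOX (-0.70, saline -0.59). Ppard, a nuclear receptor that drives fatty acid oxidation, had 35.9, 33.3 and 35.7 CPM against 26.8, 30.5 and 25 CPM (-0.35, saline -0.32). Gimap6, a GTPase of lymphocytes and endothelium, had 53.8, 48.1 and 45.4 CPM against 56.1, 63.8 and 69.8 CPM (0.37, saline 0.40). Polr1e, a subunit of RNA polymerase I, had 18.4, 19.6 and 20.1 CPM against 28, 22 and 24.6 CPM (0.36, saline 0.48). In each of these 4 genes the doxorubicin groups did not overlap. None had an adjusted p under 0.05.

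On chromosome 12, a neighbour of Adam17 and a neighbour of Traf3 also had an unadjusted p under 0.05. Asap2, in the list of genes beside Adam17, encodes an Arf GTPase-activating protein and had 20.1, 19.5 and 18.2 CPM in A17fl/fl + DOX and 11.2, 15.4 and 12.9 CPM in A17α-MHCKO + DOX, without overlap (-0.55, unadjusted p = 0.0025). In saline mice Asap2 was at 0.23 (interaction unadjusted p = 0.00239). Cdc42bpb, a kinase gene in the list for its place beside Traf3, was at -0.27 (unadjusted p = 0.0465) after doxorubicin and 0.03 after saline. Of 13 tested genes in that list, 4 were lower with an unadjusted p under 0.05 and 0 were higher, with a median of 0.05. The 4 include Adam17 and Traf3, the genes around which the list was made. For that reason the count cannot be set against the 1.19% of all tested genes that were lower. Gm6969, a processed pseudogene, is not in the list. In the order of tested genes it lies closer to Adam17 than Asap2 does, though beyond a gap of 3081 kb. Gm6969 was higher with overlapping groups (0.57, unadjusted p = 0.0318).

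Nuclear-encoded genes of the respiratory chain were mostly higher in A17α-MHCKO + DOX hearts, in 42 of 46 tested (all genes, 51.1%), with a median log2 fold change of 0.15. There were 9 genes higher without overlap (19.6%, against 6.96% of all tested genes) and 0 lower. With an unadjusted p under 0.05, 3 of the 46 were higher (6.52%, against 1.52%). They were Cox8b, Cox7b and Cox7c, all subunits of cytochrome c oxidase. Cox7b had 484, 509 and 448 CPM against 823, 546 and 569 CPM (0.43, unadjusted p = 0.0243, saline 0.38), and Cox7c had 51.0, 54.5 and 48.7 CPM against 96.2, 55.6 and 61.3 CPM (0.47, unadjusted p = 0.0406, saline 0.42). In both genes A17α-MHCKO + DOX replicate 1 was far above the other 5 mice. Without that library, 27 of 46 genes were above 0, the median was 0.02, 1 gene was higher and 2 were lower with an unadjusted p under 0.05, and Cox7b and Cox7c were at 0.22 and 0.19. In that fit 108 of all 16499 tested genes were higher and 106 lower at the same limit. The median implied length of the list was 2.67 kb, and the part of the length pattern of that library in the result was not tested. In the saline mice the list median was 0.20, with 15 genes higher without overlap and 0 lower (10.9% of all tested genes did not overlap in either direction), and without A17fl/fl + NS replicate 1, which stood apart in its group, it was 0.07. The 13 mitochondrially encoded genes had a median of 0.07, with 10 above 0 and 0 with an unadjusted p under 0.05.

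Genes of the extracellular matrix and fibrosis were mostly lower in A17α-MHCKO + DOX hearts. Of 53 tested, 7 were above 0 (13.2%, against 51.1% of all tested genes), 16 were lower without overlap (30.2%, against 7.13%) and 1 was higher (1.89%, against 6.96%), and the median log2 fold change was -0.27. Only Eln, which encodes elastin, had an unadjusted p under 0.05, with 118, 129 and 90.1 CPM in A17fl/fl + DOX and 62.0, 61.8 and 73.7 CPM in A17α-MHCKO + DOX (-0.77 ± 0.30 SE, unadjusted p = 0.0265). In saline mice Eln lay in the other direction, at 87.4, 117 and 51.4 CPM in A17fl/fl and 174, 295 and 341 CPM in A17α-MHCKO (1.66, unadjusted p = 0.000198). The interaction of Eln had an unadjusted p of 0.000135 and did not pass adjustment over all genes. Cilp, a cartilage intermediate layer protein made by cardiac fibroblasts, had 43.8, 40.4 and 52.3 CPM against 22.9, 30.4 and 37.0 CPM (-0.60, unadjusted p = 0.0527). Mmp2, a gelatinase, had 102, 114 and 121 CPM against 67.1, 102 and 90.8 CPM (-0.38, unadjusted p = 0.132), and Col6a3, a collagen VI chain, 65.8, 78.4 and 72.2 CPM against 37.5, 60.0 and 50.6 CPM (-0.55, unadjusted p = 0.145). In Cilp, Mmp2 and Col6a3 the lowest mouse was A17α-MHCKO + DOX replicate 1. The saline median of the list was -0.34, and 0.24 without A17fl/fl + NS replicate 1. Without A17α-MHCKO + DOX replicate 1 the doxorubicin median was -0.14, with 12 of 53 genes above 0 and 0 with an unadjusted p under 0.05. Fewer of all genes passed in that fit, 108 higher and 106 lower of 16499 tested. The summed level of 15 fibroblast markers was 4419 to 4847 CPM in A17fl/fl + DOX and 4176 to 4640 CPM in A17α-MHCKO + DOX, and its part in the result was not tested.

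Genes of calcium handling and conduction had 9 of 38 members above 0 (23.7%, against 51.1% of all tested genes) and a median of -0.15, with 9 lower without overlap (23.7%, against 7.13%) and 2 higher (5.26%, against 6.96%). With an unadjusted p under 0.05, 1 of the 38 was lower (2.63%, against 1.19%) and 0 were higher. Camk2d, a calmodulin-dependent kinase, was at -0.39 (unadjusted p = 0.0556) and Jph2, a protein of the junction between T-tubule and sarcoplasmic reticulum, at -0.39 (unadjusted p = 0.0826), both without overlap. Camk2d has an implied length of 46.8 kb and was at -0.20 with the length offset. Without A17α-MHCKO + DOX replicate 1 Camk2d was at -0.33, Jph2 at -0.39 and the list median at -0.06. Among 30 sarcomere genes, Flnc, an actin crosslinker of the Z-disc, was lower (358, 361 and 427 CPM against 213, 344 and 319 CPM; -0.39, unadjusted p = 0.0437) and at -0.20 without that library. Htt, which encodes huntingtin and has an implied length of 27.4 kb, was also lower without overlap (43.2, 37.3 and 37.4 CPM against 24.5, 32.2 and 29.0 CPM; -0.46), and at -0.36 without it.

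Gene groups usually followed in doxorubicin cardiomyopathy had few members with an unadjusted p under 0.05, as was the case over all tested genes (2.7%). Of 35 apoptosis genes and 30 p53 targets, 0 passed, with medians of 0.10 and 0.08. In lists of this size 0 lies near the share of all genes. Without A17fl/fl + NS replicate 1, 1 gene of each list was higher and 0 were lower. The p53 target with the smallest p was Ddb2, a DNA damage binding protein, at 2.2, 2.4 and 2.24 CPM against 4.78, 2.53 and 3.28 CPM (0.63, unadjusted p = 0.0529). Of 49 genes of DNA replication and repair only Pold3 passed, while 11 were higher without overlap (22.4%, against 6.96% of all tested genes) and 0 lower, and the median was 0.10. Of 50 NRF2 targets, antioxidant genes and NADPH oxidases 0 passed and 37 were above 0 (median 0.14, and 0.03 without A17α-MHCKO + DOX replicate 1). Mgst3, a microsomal glutathione transferase, was at 0.43 with all libraries and 0.20 without that one, and Gpx4, which reduces lipid peroxides, at 0.33 and 0.07. Of 21 genes of anthracycline targets and handling 1 was higher (4.76%, against 1.52% of all tested genes). It was Hnmt, histamine N-methyltransferase (4.65, 3.26 and 4.91 CPM against 7.24, 5.85 and 6.56 CPM, log2 fold change 0.61, unadjusted p = 0.0373). Abcb1b, a multidrug efflux pump, was at 0.32 (unadjusted p = 0.0968) without overlap after doxorubicin and at -0.80 after saline (unadjusted p = 0.000719).

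Of 34 autophagy genes 2 were higher with an unadjusted p under 0.05 (5.88%, against 1.52% of all tested genes). Atg12, of the conjugation system of the autophagosome, had 25.9, 27.2 and 25.4 CPM in A17fl/fl + DOX and 31.3, 29.7 and 32.3 CPM in A17α-MHCKO + DOX, without overlap (0.25, unadjusted p = 0.0424). Map1lc3b, which encodes LC3B, had 68.6, 70.0 and 76.4 CPM against 237, 73.9 and 77.1 CPM, and its 0.85 became 0.08 without A17α-MHCKO + DOX replicate 1. Of 41 genes of fatty acid and ketone oxidation, only Ppard passed, lower, and the median was 0.10. Of 26 cardiac stress genes 0 passed (median -0.10), and 1 was higher and 1 lower without A17fl/fl + NS replicate 1. Myh7, the fetal myosin heavy chain, varied within both groups, at 537, 689 and 1584 CPM against 3173, 887 and 1814 CPM. Of 70 interferon-stimulated genes 0 passed, 1 was higher without overlap (1.43%, against 6.96% of all tested genes) and the median was 0.01. In the saline mice 27 of the 70 were higher in the knockout without overlap, against 888 of all 16101 tested genes. The saline median was 0.52, or 0.83 without A17fl/fl + NS replicate 1. That difference between the treatments was not tested for the list. Of 34 cytokines and chemokines, 33 cell cycle genes, 30 immediate-early genes, 38 genes of protein and integrated stress and 21 clock genes, 0 passed in any list, with medians of -0.04, -0.01, -0.04, 0.09 and 0.12. Over all tested genes 2.7% passed. Without A17fl/fl + NS replicate 1, 2 cytokines and chemokines and 1 immediate-early gene were lower and 1 clock gene was higher. In that fit 0 passed in the cell cycle and stress lists. Without A17α-MHCKO + DOX replicate 1 the cell cycle median was 0.32.

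**Figure D5:**
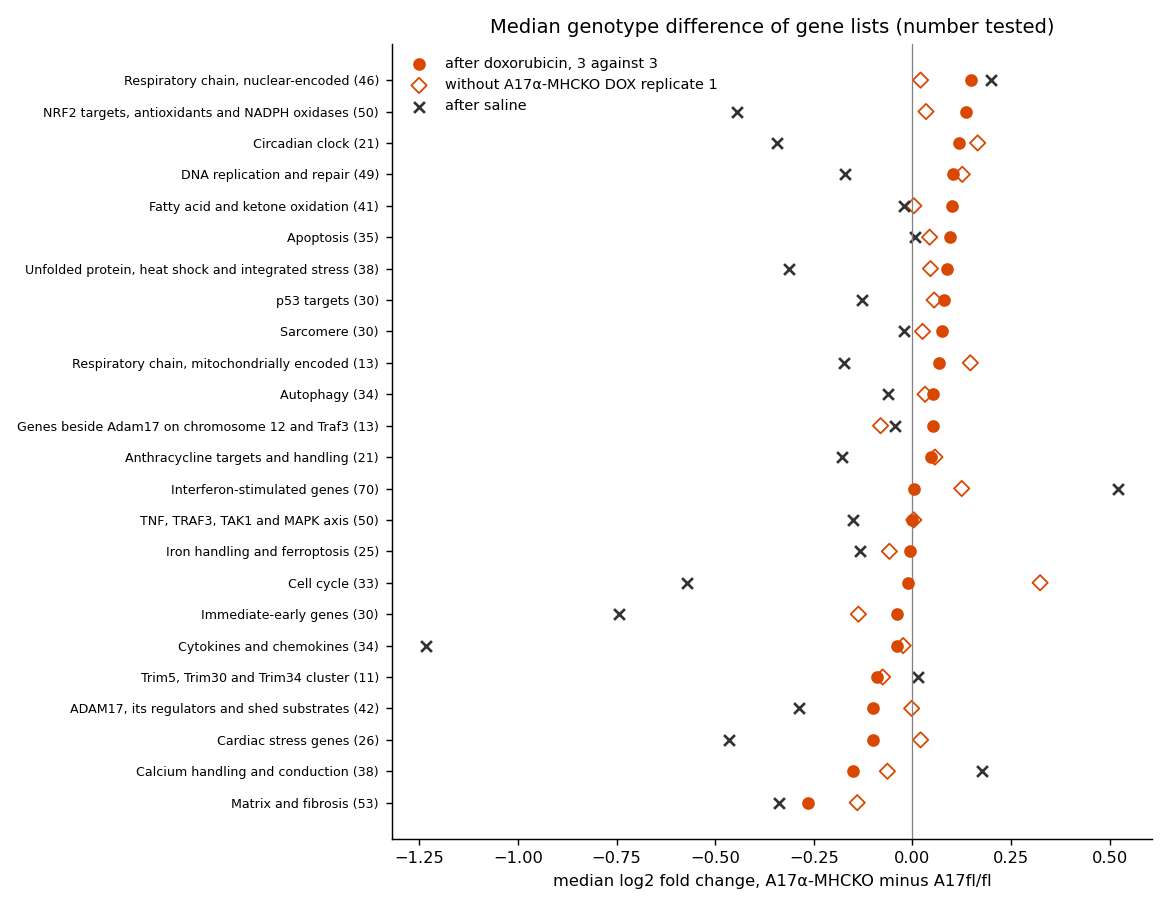
Median log2 fold change between the genotypes (x axis) of gene lists (y axis, number of tested genes in brackets). Filled circles are the doxorubicin mice, open diamonds the same without A17α-MHCKO + DOX replicate 1 and crosses the saline mice. The respiratory chain median moves from 0.15 to 0.02 and the matrix median from -0.27 to -0.14 when that library is left out.

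Markers of cardiomyocytes were abundant in every library, at 58048 to 64329 CPM in sum in A17fl/fl + DOX and 55882 to 63404 CPM in A17α-MHCKO + DOX. The sums overlapped between the genotypes for endothelium (3488 to 3542 against 3450 to 3825 CPM), macrophages (1796 to 2057 against 1625 to 2216 CPM) and atrium (3203 to 7077 against 3023 to 5860 CPM). Only the summed mesothelial markers did not overlap, at 472 to 636 CPM against 389 to 456 CPM. Neutrophil markers were highest in A17α-MHCKO + DOX replicate 1, at 93.2 CPM, against 21.3 to 40.9 CPM in the other 5 libraries. Of 15 tested atrial markers 1 was above 0 (6.67%, against 51.1% of all tested genes), with a median log2 fold change of -0.24. Without A17α-MHCKO + DOX replicate 1, 5 of the 15 were above 0 and the median was -0.16. Bmp10, a growth factor of the right atrium, had 42.0, 10.4 and 10.1 CPM in A17fl/fl + DOX and 0.0629, 0 and 0.486 CPM in A17α-MHCKO + DOX, while in saline it reached 298 CPM in 1 A17fl/fl mouse and 313 CPM in 1 A17α-MHCKO mouse. The summed adipocyte markers overlapped, at 4155 to 4439 CPM in A17fl/fl + DOX and 4321 to 4752 CPM in A17α-MHCKO + DOX. Of 15 tested markers, 1 was higher without overlap (6.67%, against 6.96% of all tested genes) and 0 lower (against 7.13%). Their median log2 fold change was -0.44, with 3 of 15 above 0, and -0.71 without A17α-MHCKO + DOX replicate 1. Among them the lipogenic genes Scd1 and Fasn were at -1.29 (unadjusted p = 0.066) and -1.21 (unadjusted p = 0.0741), with overlapping groups. The share of tissue types in the pieces taken and the level per cell cannot be told apart in these bulk samples.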

How the data were processed

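RNA of heart tissue (left ventricle in the study's text) from 12 mice, 3 in each of 4 groups, was sequenced by the authors, and groups were taken from the sample labels. The submitters' processing notes name CASAVA 1.8, HISAT2, SAMtools 1.3.1, edgeR and the genome build GRCm39. The deposited table gives raw fragment counts per gene and sample, without normalization, and the authors also deposited FPKM values, used here only for the expression limit and for implied gene lengths. Of 53465 gene identifiers, 53274 were found in GENCODE M21 (GRCm38), which gave chromosomes, gene order and exon 2. Promoter sequences are from RefSeq (GRCm38.p6). Depth was 15950717 to 21725076 fragments over the 12 libraries, and the number of mice limits precision more than depth does.

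Counts were fitted with edgeR 4.0.16 (R 4.3.3) as 1 quasi-likelihood model of 4 group means over all 12 libraries, with TMM normalization and the filter filterByExpr, and p-values were adjusted by Benjamini-Hochberg over the 16101 genes tested. All unadjusted p-values of single genes come from this fit unless an exact permutation test is named. Log2 fold changes are A17α-MHCKO minus A17fl/fl. CPM values are counts scaled by library totals multiplied by TMM factors. Alternatives used DESeq2 1.42.0 and limma 3.58.1, other normalizations, filters and sample sets. The scripts were tested on simulated counts.

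The comparison, gene lists and tests were chosen with earlier results of these data known. Genes were named if they belong to a set of axis genes (Adam17, Tnf, Tnfrsf1a, Traf3, Map3k7, Mapk8, Mapk9, Mapk14, Mapk3 and Cebpb), had an adjusted p under 0.05, were among the 15 calls with the smallest p in either direction, or were among the 3 smallest p-values of a list. Lipt2, Pgm2l1, Ppme1, Rpe, Htt, Gimap6, Polr1e, Nr3c1, Ppp4r3b, Fbrs, Ergic1 and Gm6969 were chosen after their values were seen. Some genes that the rule names are not reported here. Nothing states that replicates with the same number belong together. P-values measure the spread between mice.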

Additional observations from a re-analysis of the deposited data

How the results depend on the processing

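The 33 calls at the study limits became 69 with a CPM limit in place of the FPKM limit and 1 with adjusted p-values, and lay between 28 and 64 when 1 doxorubicin library was left out, the 64 without A17α-MHCKO + DOX replicate 2. The 24 higher and 9 lower calls became 23 and 20 with the doxorubicin groups alone and 18 and 14 with an offset for gene length. The 1 gene with an adjusted p under 0.05 became 2 with the doxorubicin groups alone, without A17fl/fl + NS replicate 1, with no filter and with both libraries that stood apart left out, 3 with DESeq2 and with voom, 4 with the likelihood ratio test, and 1 to 2 when a library was left out. The 5 called genes that also passed after saline became 3 with at least 10 counts in every library, and 3 to 8 when a library was left out. Lists changed as well without A17fl/fl + NS replicate 1. At an unadjusted p under 0.05, 1 of 38 calcium genes was higher and 6 were lower. In the matrix list 0 of 53 were higher and 3 lower, and in the axis list 0 of 50 and 2. The nuclear-encoded respiratory chain had 6 of 46 higher and 0 lower, and the NRF2 list 2 of 50 and 0. The ADAM17 list had 1 of 42 higher and 2 lower. Traf3 lost its unadjusted p under 0.05 with the length offset (-0.62) and with both libraries left out (-0.72), and lay between -0.99 and -0.55 over single libraries left out.

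Genes near 0 changed sign. Map3k7 lay between -0.18 and 0.16 over libraries left out, and was at 0.093 with voom and 0.16 with both libraries left out. Mapk8 lay between -0.062 and 0.056, and Mapk9 between -0.14 and -0.01 and at 0.017 with the length offset. Adam17 and Pold3 kept their direction and an unadjusted p under 0.05 in every alternative. Same-numbered mice did not deviate together (correlations -0.09, -0.00 and -0.05, against -0.03 to 0.07 between different numbers). With 3 mice a group, these correlations cannot settle whether the numbers pair the samples. A fit with the replicate block gave 33 calls, 26 of them shared, and 1 adjusted call. The length offset, the voom fit with library weights and leaving out both libraries were chosen after seeing the data. With 3 mice a group, the adjusted test passed 1 gene, and levels below about 1 CPM rest on few fragments. The cause of these changes was not tested.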

Other observations

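Some genes outside the lists and below the fold limit differed between the genotypes after doxorubicin in all 6 mice, and they are given here as values chosen after they were seen. Nr3c1, which encodes the glucocorticoid receptor, had 87.7, 87.2 and 85.8 CPM in A17fl/fl + DOX and 45.4, 58.4 and 48.2 CPM in A17α-MHCKO + DOX (log2 fold change -0.78, edgeR unadjusted p = 0.00479). After saline Nr3c1 was at 0.20. Ppp4r3b, a regulatory subunit of protein phosphatase 4, had 14.6, 14.5 and 11.7 CPM against 22.8, 23.7 and 30.9 CPM (0.92, unadjusted p = 0.000478, saline -0.08). Fbrs, a gene of a Polycomb-associated protein family, had 33.4, 33.2 and 43.9 CPM against 18.5, 25.1 and 23.1 CPM (-0.73, saline -0.17). Ergic1, which encodes a membrane protein of the compartment between endoplasmic reticulum and Golgi, had 54.9, 59.6 and 47.5 CPM against 33.0, 35.9 and 38.4 CPM (-0.59, saline -0.14). The groups did not overlap in any of the 4 genes, and each had an unadjusted p under 0.05 in 19 of 19 fits. None had an adjusted p under 0.05 in any of them.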
